A study of Homo sapiens with 24 samples.

Results

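MHC class I antigen presentation was followed through 9 genes of the 59609 in the deposited count table. They were chosen by name: the heavy chains HLA-B, HLA-C, HLA-E and HLA-F, the light chain gene B2M, the peptide transporter genes TAP1 and TAP2, the tapasin gene TAPBP and the class I transactivator NLRC5. The libraries come from wild-type cells of 2 breast cancer lines without the oestrogen receptor (ER), the mesenchymal MDA-MB-231 line and the MDA-MB-453 line. MDA-MB-231 cells grew in RPMI-1640 with serum, GlutaMax and HEPES and MDA-MB-453 cells in DMEM with serum, so that line and medium cannot be told apart in any comparison between the lines. Cells of each line received the vehicle DMSO, 500 nM abemaciclib, 5 nM fulvestrant or these drugs together (the combination) over 5 days, with 3 independent cultures in each of the 8 groups. Abemaciclib inhibits CDK4 and CDK6 and thereby activates the Rb protein, and fulvestrant degrades the oestrogen receptor. Each line is a single cell line and stands for itself only.

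A class I molecule is a heavy chain bound to beta-2 microglobulin, the B2M product, and to a short peptide cut from proteins of the cell. Proteasomes make the peptides, the TAP1-TAP2 transporter carries them into the endoplasmic reticulum, and tapasin holds the empty heavy chain beside the transporter until a peptide is loaded. The loaded molecule moves to the cell surface, where CD8 T cells read it. The promoters of classical heavy chain genes are known for an NF-kB site, an interferon-stimulated response element and the SXY module, on which NLRC5 acts together with RFX, CREB and NF-Y factors. Interferons are well known to raise the genes of this pathway.

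The 24 libraries held 2873558 to 4158762 counts. The line markers matched the labels: VIM, CD44 and AXL were at 0 in all DMSO libraries of MDA-MB-453, and FOXA1, at 191 ± 18.8 CPM (SD, n = 3) there, was at 3.53 ± 2.05 CPM in those of MDA-MB-231. White blood cells express class I genes strongly. Of 10 markers of such cells, 7 were at 0 in all 24 libraries, including CD3E, and their summed counts were 0 to 5 per library (PTPRC had 3 counts in all, CD3D had 1 and CD79A had 8, of which 5 were in 1 library). The mitochondrial share of the counts moved with abemaciclib, from 8.83% to 12.2% without and from 9.01% to 13.7% with fulvestrant in MDA-MB-231. The MDA-MB-453 shares went from 15.2% to 23.8% without and from 14.3% to 21.2% with it. The members called in each comparison numbered the same without mitochondrial transcripts, except for TAPBP as given below.

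Promoters are shown for 6 members, among them genes that rose together in one line and parted in the other. The windows run from 250 bases before to 50 bases after the RefSeq start site on GRCh38.p14, 5′ to 3′ on the strand of the gene. Of the 9 members, 7 matched the table. HLA-E and NLRC5 did not, so the HLA-E promoter is not shown although HLA-E rose with the other heavy chains in MDA-MB-231. HLA-F matched but is not printed. HLA-B lies at chr6:31357130-31357429, HLA-C at chr6:31272043-31272342, TAP1 at chr6:32853655-32853954, TAP2 at chr6:32838690-32838989 and TAPBP at chr6:33314029-33314328, all on the minus strand within the major histocompatibility complex, and B2M at chr15:44711267-44711566 on the plus strand. Capitals mark every match, on either strand, to 5 motifs: the core of the interferon-stimulated response element (GAAANNGAA), the GAS element of interferon-responsive promoters (TTCNNNGAA), the kappaB consensus, the CREB half-site of the X2 box (TGACG) and the Y box bound by NF-Y (ATTGG). Overlapping matches run together into a longer stretch of capitals.
HLA-B: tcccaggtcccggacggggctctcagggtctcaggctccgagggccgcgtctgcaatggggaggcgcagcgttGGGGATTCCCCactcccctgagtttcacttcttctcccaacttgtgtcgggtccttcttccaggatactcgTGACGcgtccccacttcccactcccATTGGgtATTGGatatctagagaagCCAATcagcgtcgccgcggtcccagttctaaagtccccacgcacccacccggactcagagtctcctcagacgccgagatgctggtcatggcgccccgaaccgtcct
HLA-C: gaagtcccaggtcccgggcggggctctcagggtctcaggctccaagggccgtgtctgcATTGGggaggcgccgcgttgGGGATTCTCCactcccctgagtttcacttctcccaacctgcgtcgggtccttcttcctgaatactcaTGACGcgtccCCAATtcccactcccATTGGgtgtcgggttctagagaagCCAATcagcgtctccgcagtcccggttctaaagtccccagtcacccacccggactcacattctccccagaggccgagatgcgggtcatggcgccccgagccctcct
B2M: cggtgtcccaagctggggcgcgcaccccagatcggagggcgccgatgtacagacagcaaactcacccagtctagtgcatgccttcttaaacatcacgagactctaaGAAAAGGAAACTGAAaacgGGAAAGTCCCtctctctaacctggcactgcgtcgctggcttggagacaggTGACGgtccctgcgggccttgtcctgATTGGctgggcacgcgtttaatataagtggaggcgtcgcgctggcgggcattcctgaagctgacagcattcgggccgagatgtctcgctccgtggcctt
TAP1: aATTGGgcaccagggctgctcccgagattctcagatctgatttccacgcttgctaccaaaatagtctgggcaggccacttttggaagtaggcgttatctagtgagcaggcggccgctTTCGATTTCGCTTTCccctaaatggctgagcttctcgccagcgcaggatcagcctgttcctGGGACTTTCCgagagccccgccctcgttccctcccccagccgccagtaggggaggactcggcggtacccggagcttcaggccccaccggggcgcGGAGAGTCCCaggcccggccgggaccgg
TAP2: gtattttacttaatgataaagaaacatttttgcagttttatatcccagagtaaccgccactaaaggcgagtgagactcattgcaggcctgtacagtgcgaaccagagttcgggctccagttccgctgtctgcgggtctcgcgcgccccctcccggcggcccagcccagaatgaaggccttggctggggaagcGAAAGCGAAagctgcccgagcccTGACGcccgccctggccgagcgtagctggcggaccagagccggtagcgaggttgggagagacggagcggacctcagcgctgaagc
TAPBP: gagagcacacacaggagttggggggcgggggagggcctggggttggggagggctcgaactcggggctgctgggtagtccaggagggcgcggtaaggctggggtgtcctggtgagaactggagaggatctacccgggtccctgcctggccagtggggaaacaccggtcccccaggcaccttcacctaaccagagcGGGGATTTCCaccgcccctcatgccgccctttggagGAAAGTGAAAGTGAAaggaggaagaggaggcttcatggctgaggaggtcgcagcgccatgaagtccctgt

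The kappaB consensus was matched in HLA-B, HLA-C, B2M, TAP1 and TAPBP, and in 5.91% of all 35116 promoters of the same length. Its letters were GGGRNWYYCC (R is A or G, W is A or T, Y is C or T, N is any base). The letters of the interferon and kappaB motifs were widened after a first search, so these matches and shares carry no test. The interferon-stimulated core was matched in B2M, TAP1, TAP2 and TAPBP (8.11% of all promoters), and these letters were not in the HLA-B and HLA-C windows. Only these exact letters were searched, so a response element with other letters would be missed. Their absence does not show that HLA-B and HLA-C lack the element. TGACG was matched in HLA-B, HLA-C, B2M and TAP2 (24.6% of all promoters), with 1 match in each, and ATTGG in HLA-B, HLA-C, B2M and TAP1 (34.6% of all promoters). In HLA-B, HLA-C and B2M the kappaB match, the TGACG match and the last ATTGG match followed each other in that order. TGACG began 106, 105 and 75 bases before the start site respectively. The GAS letters, found in 7.66% of all promoters, were in none of the windows printed. TAP1 has a second RefSeq window, chr6:32852712-32853011, which is not printed. It held a GAS match at -189 to -181 from its start site. The HLA-F window, also not printed, held the interferon-stimulated core and ATTGG. The HLA-B, HLA-C and B2M promoters thus held the same order of the kappaB, TGACG and last ATTGG matches.

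The lines were set apart before treatment. Under DMSO, all 8 members that could be tested differed between the lines, as did 69.8% of all genes. HLA-C was 5.48-fold higher in MDA-MB-453 than in MDA-MB-231, and B2M and TAPBP were higher as well, whereas HLA-B, HLA-E, TAP1, TAP2 and NLRC5 were lower. Levels are given as CPM, counts relative to the library size, scaled by TMM factors over all 24 libraries, and differences as log2 fold changes with the SE of the quasi-likelihood fit.

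HLA-B, a classical heavy chain, was read at 54.5, 47.5 and 50.3 CPM in the 3 DMSO libraries of MDA-MB-231 and at 2.37, 1.11 and 1.16 CPM in those of MDA-MB-453. In raw counts this was 519 against 16, a 34.6-fold difference relative to library totals with a counting interval (95%) of 21.1 to 61.1. HLA-C, the other classical heavy chain here, had the opposite order, with 48.8, 65.6 and 41.5 CPM in MDA-MB-231 and 286, 293 and 278 CPM in MDA-MB-453 (log2 fold change 2.46 ± 0.141 (SE), edgeR adjusted p = 1.06e-20). No library of a line came near the range of the other for either gene. Alleles of these heavy chains differ between cell lines and from the reference genome, and how reads that differ from the reference were treated is not stated, so the part of this in the line differences was not tested.

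HLA-E, a non-classical heavy chain that is the ligand of an inhibitory receptor of natural killer cells, stood at 62.7 ± 4.99 CPM (SD, n = 3) in MDA-MB-231 and at 22.7 ± 1.86 CPM in MDA-MB-453 under DMSO. TAP2 stood at 114 ± 11.9 and 16.5 ± 3.26 CPM, a 6.89-fold difference, and TAP1 at 13.4 ± 2.59 and 6.35 ± 1.68 CPM (log2 fold change -1.08 ± 0.353, edgeR adjusted p = 0.00635). The transporter genes were thus both lower in MDA-MB-453. B2M, the light chain of every class I molecule, was higher there at 509 ± 19.3 against 302 ± 27.0 CPM, and TAPBP at 111 ± 8.01 against 72.3 ± 11.2 CPM. The libraries of the lines did not overlap for any of these genes. How many of all genes separate in this way, here or in the other comparisons, was not counted.

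NLRC5 and HLA-F were near the limit of detection. NLRC5 had 202 counts over the 12 libraries of MDA-MB-231 and 1 count over the 12 of MDA-MB-453, where 11 libraries were at 0. Under DMSO it had 40 counts against 0, so that it was at least 14.2-fold higher in MDA-MB-231 relative to library totals, without TMM scaling, taking 3 counts over the group as the floor. HLA-F, a non-classical heavy chain, had 21 counts in all 24 libraries, with 18 libraries at 0 and at most 6 counts in any, and was tested in neither line. At this depth nothing can be said of its response. In MDA-MB-231 it was read in 2 of 3 libraries given abemaciclib (5, 6 and 0 counts), 1 given fulvestrant (1 count), 1 given the combination (4 counts) and none given DMSO, and in MDA-MB-453 in 1 DMSO library (2 counts) and 1 fulvestrant library (3 counts).

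**Figure D1:**
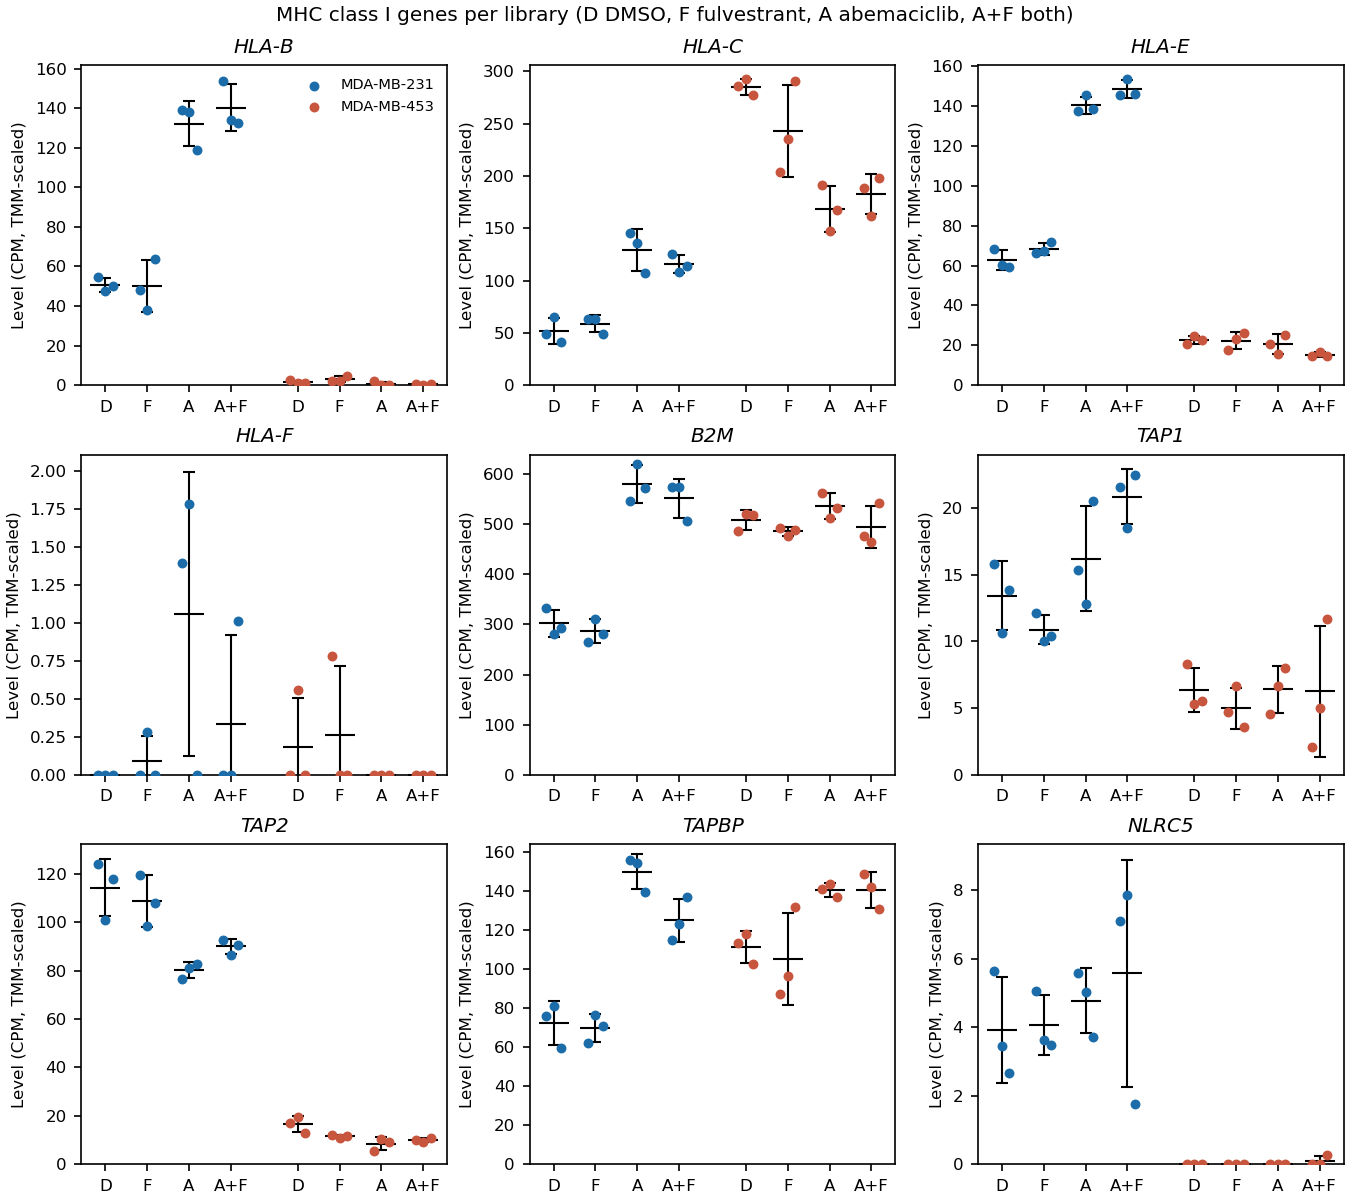
Level of each of the 9 genes in every library (vertical axes, CPM scaled by TMM, each starting at 0), with DMSO (D), fulvestrant (F), abemaciclib (A) and the combination (A+F) for MDA-MB-231 in blue and MDA-MB-453 in red. Points are libraries, and black bars are the mean and SD of 3 libraries. In MDA-MB-231 the A and A+F libraries of HLA-B, HLA-C, HLA-E, B2M and TAPBP lie above all D and F libraries.

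In MDA-MB-231, HLA-B, HLA-C, HLA-E, B2M and the tapasin gene rose with abemaciclib, TAP2 fell, and TAP1 was not called. Of the 8 members tested, 5 were higher under abemaciclib than under DMSO and 1, TAP2, was lower. Among all 11314 genes tested, 16.9% were called higher and 16.9% lower. The median log2 fold change of the members was 1.00, beside -0.0005 over all genes. These are bulk libraries, so that a change in every cell and a change in some of the cells cannot be told apart, nor can fewer cells of a kind and less RNA per cell.

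HLA-B was read at 139, 138 and 119 CPM under abemaciclib, each more than any DMSO library (log2 fold change 1.38 ± 0.140, 95% interval 1.10 to 1.66, edgeR adjusted p = 1.09e-10). HLA-C was read at 145, 136 and 107 CPM, against 41.5 to 65.6 CPM under DMSO (log2 fold change 1.32 ± 0.145, edgeR adjusted p = 1.05e-09). HLA-E was read at 137, 145 and 138 CPM, against 59.5 to 68.4 CPM (log2 fold change 1.17 ± 0.117, edgeR adjusted p = 8.76e-11). The 3 measurable heavy chains thus all rose, and their 95% intervals overlapped. The last 500 bases of HLA-B and HLA-C, where 3′ libraries gather their reads, shared 13 of 451 windows of 50 bases and none of 401 windows of 100 bases, the length of the reads. Windows that differ by a few bases only were not counted, and how such reads were assigned is not stated.

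B2M was read at 547, 621 and 572 CPM under abemaciclib and at 333, 282 and 292 CPM under DMSO (log2 fold change 0.94 ± 0.0940, edgeR adjusted p = 7.48e-11). TAPBP was read at 156, 155 and 139 CPM, against 75.9, 81.2 and 59.8 CPM (log2 fold change 1.06 ± 0.125, edgeR adjusted p = 5.94e-09). For both genes every treated library lay above every DMSO library. In a later annotation, GENCODE v44, the last 500 bases of TAPBP are also covered by exons of ENSG00000289100 on the opposite strand, and whether strand was used in counting is not stated.

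The transporter genes gave other results. TAP2 was read at 76.4, 81.3 and 82.8 CPM under abemaciclib, below the 124, 101 and 118 CPM under DMSO (log2 fold change -0.51 ± 0.121, edgeR adjusted p = 0.000926). TAP1 was read at 15.3, 12.8 and 20.5 CPM, overlapping the 15.8, 10.7 and 13.8 CPM under DMSO (log2 fold change 0.28 ± 0.255, 95% interval -0.24 to 0.79, edgeR adjusted p = 0.431). The interval for TAP1 lies below that of HLA-B, HLA-C, HLA-E and TAPBP, but a difference between genes was not tested. The last 500 bases of TAP1 are covered on the opposite strand by PSMB8-AS1, so its reads cannot be told from those of that gene if strand was not used. NLRC5, the transactivator of these genes, had 20, 17 and 14 counts under abemaciclib and 19, 12 and 9 under DMSO (log2 fold change 0.29 ± 0.515, 95% interval -0.75 to 1.33), an interval that still holds more than a doubling.

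The same step in the presence of fulvestrant, the combination against fulvestrant alone, compares none of the libraries above. The estimate of the spread is shared with them, since all 12 libraries of the line were fitted together. In MDA-MB-231, 6 of 8 members were higher and none was lower, with 17.6% and 18.5% of all genes called in those directions and a member median of 0.95. HLA-B was read at 154, 134 and 133 CPM against 48.2, 37.97 and 64.0 CPM under fulvestrant (log2 fold change 1.49 ± 0.139, edgeR adjusted p = 9.83e-12). HLA-E, at 146 to 153 CPM against 66.2 to 71.8 CPM, B2M, at 508 to 575 CPM against 265 to 312 CPM, HLA-C, at 109 to 125 CPM against 49.2 to 63.7 CPM, and TAPBP, at 115 to 137 CPM against 62.0 to 76.2 CPM, rose as well, by 1.12, 0.95, 0.98 and 0.85 on the log2 scale. The combination and fulvestrant libraries did not overlap for any of these 5 genes, and the share of all genes without overlap was not counted.

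TAP1 passed the test in this step, at 21.5, 18.5 and 22.5 CPM under the combination against 12.1, 10.1 and 10.4 CPM under fulvestrant (log2 fold change 0.94 ± 0.253, edgeR adjusted p = 0.00292). Its effects with and without fulvestrant were not shown to differ, since the interaction was 0.66 ± 0.360 (95% interval -0.06 to 1.39, edgeR adjusted p = 0.486). TAP2 was read at 92.8, 86.6 and 90.8 CPM against 120, 98.3 and 108 CPM, with no overlap, but did not pass (log2 fold change -0.27 ± 0.119, edgeR adjusted p = 0.0759). NLRC5 had 27, 34 and 7 counts against 18, 13 and 12 (log2 fold change 0.46 ± 0.500), with the lowest and the highest library both under the combination.

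**Figure D2:**
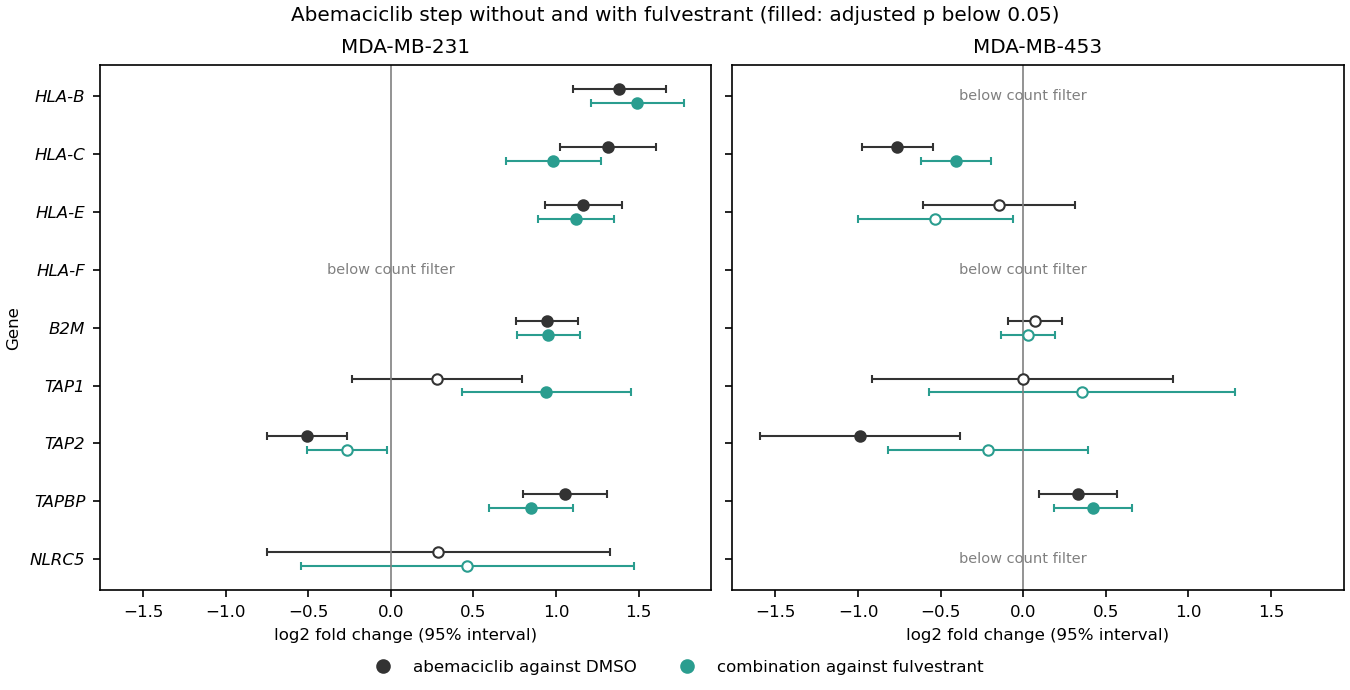
Log2 fold change (horizontal axis, with 95% interval) of each gene for abemaciclib against DMSO (black) and the combination against fulvestrant (green) in each line, 3 libraries against 3. Filled points passed an edgeR adjusted p of 0.05. In MDA-MB-231 HLA-B, HLA-C, HLA-E, B2M and TAPBP lie between 0.85 and 1.49 in both, whereas in MDA-MB-453 the points lie between -0.99 and 0.42.

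In MDA-MB-453, 3 of the 6 members tested passed under abemaciclib, and they moved in different directions. TAPBP was higher, HLA-C and TAP2 were lower, and HLA-E, B2M and TAP1 did not pass. The background was 16.6% of 11080 genes higher and 19.4% lower, and the member median was -0.07, beside -0.002 over all genes.

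HLA-C, which stood higher in this line than in MDA-MB-231 before treatment, was read at 191, 148 and 167 CPM under abemaciclib against 286, 293 and 278 CPM (log2 fold change -0.76 ± 0.107, edgeR adjusted p = 1.11e-07). TAP2 was read at 5.34, 10.5 and 9.36 CPM against 17.2, 19.4 and 13.0 CPM (log2 fold change -0.99 ± 0.300, edgeR adjusted p = 0.00765). For both genes every treated library lay below every DMSO library. TAP2 rested on 20 to 35 counts per treated library and no longer passed without abemaciclib replicate 1 (log2 fold change -0.73, edgeR adjusted p = 0.0739).

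TAPBP was read at 141, 144 and 137 CPM under abemaciclib against 113, 118 and 103 CPM (log2 fold change 0.33 ± 0.117, edgeR adjusted p = 0.0230). The libraries did not overlap, but the call was lost when replicate 1 or 3 of DMSO or replicate 2 of abemaciclib was left out (log2 fold changes 0.34, 0.27 and 0.31, edgeR adjusted p 0.0504, 0.12 and 0.066). B2M, at 563, 512 and 533 CPM against 486, 522 and 518 CPM, had a log2 fold change of 0.07 with a 95% interval of -0.09 to 0.23. Its interval thus excludes a rise of the size seen in MDA-MB-231. HLA-E was read at 20.8, 15.6 and 25.4 CPM against 20.7, 24.4 and 22.8 CPM (log2 fold change -0.15 ± 0.227), and TAP1 at 6.39 ± 1.75 against 6.35 ± 1.68 CPM, with a 95% interval of -0.91 to 0.91 that allows a change of either sign.

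With fulvestrant present, 2 of 6 members passed in MDA-MB-453, beside 17.2% of all genes higher and 19.4% lower. HLA-C was again lower, at 189, 162 and 198 CPM under the combination against 204, 235 and 291 CPM under fulvestrant (log2 fold change -0.41 ± 0.106, edgeR adjusted p = 0.00201). TAPBP was again higher, at 149, 142 and 131 CPM against 87.4, 96.4 and 132 CPM, although the libraries overlapped, and it did not pass without fulvestrant replicate 1 (log2 fold change 0.42 ± 0.117, edgeR adjusted p = 0.00336, and 0.31 with adjusted p = 0.0605 without it). TAP2 had a log2 fold change of -0.21 ± 0.301 here. HLA-E was read at 14.7, 16.7 and 14.7 CPM against 17.7, 23.1 and 26.2 CPM, with no overlap, and missed the threshold (log2 fold change -0.53 ± 0.233, edgeR adjusted p = 0.0677), which it passed when all 24 libraries shared a fit (adjusted p = 0.0181).

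TAP1 in MDA-MB-453 could not be judged under the combination. It had 6, 17 and 45 counts in the 3 libraries, and its log2 fold change against fulvestrant went from 0.36 to -0.47 without replicate 3. HLA-B was below the count filter in this line, with 8, 4 and 4 counts under DMSO, 7, 1 and 0 under abemaciclib, 8, 9 and 16 under fulvestrant and 1, 0 and 3 under the combination. Its summed counts were lower with abemaciclib in both steps: the ratio of DMSO to abemaciclib counts was 2.05 (counting interval 0.826 to 5.52) and that of fulvestrant to the combination 7.79 (2.77 to 30.3). These intervals cover counting error only and not the spread between cultures.

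The response to abemaciclib was compared between the lines directly, by subtracting the effect in MDA-MB-231 from the effect in MDA-MB-453. Without fulvestrant, 5 of 8 members passed this test, all with the smaller or opposite effect in MDA-MB-453, and 20.7% of all genes passed it in either direction. HLA-C differed by -2.07 ± 0.192 on the log2 scale (edgeR adjusted p = 5.52e-12), since it rose in one line and fell in the other. HLA-E differed by -1.31 ± 0.217, B2M by -0.87 ± 0.123 and TAPBP by -0.72 ± 0.178, where the gene rose in MDA-MB-231 and changed less or was not called in MDA-MB-453. HLA-B differed by -2.30 ± 0.706 (edgeR adjusted p = 0.0142), a value that rests on the 16 and 8 counts above and did not pass without DMSO replicate 1 of MDA-MB-453 (-1.94, adjusted p = 0.114).

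With fulvestrant present, 4 members passed the line difference, beside 18.1% of all genes. HLA-B differed by -4.30 ± 0.670, HLA-E by -1.65 ± 0.221, HLA-C by -1.39 ± 0.190 and B2M by -0.92 ± 0.123, each with the lower effect in MDA-MB-453. TAPBP differed by -0.42 ± 0.178 and did not pass (edgeR adjusted p = 0.0950), but passed without mitochondrial transcripts (-0.52, adjusted p = 0.0317). The TAP2 effects were alike in sign: the line difference was -0.48 (95% interval -1.001 to 0.03) without fulvestrant and 0.06 (-0.47 to 0.59) with it. For TAP1 the intervals, -1.29 to 0.73 and -1.58 to 0.45, were wide. NLRC5 had too few counts in MDA-MB-453 to be compared.

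No member passed for the ER degrader alone in either line. For fulvestrant against DMSO, edgeR called 0 of 8 members in MDA-MB-231 and 0 of 6 in MDA-MB-453, where 0% and 1.41% of all genes were called. At an unadjusted p below 0.05 no member passed in MDA-MB-231, beside 799 of all 11314 genes. HLA-C alone passed in MDA-MB-453, beside 1504 of all 11080 genes. DESeq2 called 0 of the 9 (MDA-MB-231) and 3 (MDA-MB-453) members to which it gave an adjusted p. In MDA-MB-231 the log2 fold changes were -0.02 (95% interval -0.32 to 0.28) for HLA-B, 0.18 (-0.13 to 0.48) for HLA-C, 0.13 (-0.12 to 0.37) for HLA-E and -0.08 (-0.27 to 0.11) for B2M. For each of these 4 genes the interval leaves out the fold change measured with abemaciclib. The widest intervals were those of NLRC5 (-1.01 to 1.11) and TAP1 (-0.84 to 0.23).

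In MDA-MB-453, HLA-C was read at 204, 235 and 291 CPM under fulvestrant against 278 to 293 CPM under DMSO (log2 fold change -0.22 ± 0.104, edgeR adjusted p = 0.327). The lowest library was 204 CPM and the highest lay within the DMSO range, and without that one, replicate 3, the change passed (-0.36, edgeR adjusted p = 0.0172). Over all genes, 786 of 11370 passed without replicate 3, against 156 of 11080 with it. B2M had an interval of -0.22 to 0.11 and TAPBP one of -0.32 to 0.16. TAP2 was read at 12.0, 10.9 and 11.6 CPM, below the 13.0 to 19.4 CPM under DMSO, but did not pass (-0.51 ± 0.287, edgeR adjusted p = 0.440).

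Adding fulvestrant to abemaciclib likewise gave 0 members called by edgeR in each line, against a background of 0.0265% (MDA-MB-231) and 2.46% (MDA-MB-453) of all genes. DESeq2 also called 0, and at an unadjusted p below 0.05 the count was 1 (TAPBP) in MDA-MB-231 but 0 in MDA-MB-453. Over all genes that unadjusted count was 1148 of 11314 and 1666 of 11080. TAPBP in MDA-MB-231 was at 125 ± 11.1 CPM under the combination and 150 ± 9.09 CPM under abemaciclib (log2 fold change -0.26 ± 0.120, edgeR adjusted p = 0.438). The interaction, the change in the abemaciclib effect when fulvestrant is present, was called for 0 members by edgeR and by DESeq2 in each line, with 0.124% and 3.80% of all genes called. At an unadjusted p below 0.05 the interaction counted 0 members in MDA-MB-231 and 1, HLA-C, in MDA-MB-453. Over all genes the interaction counted 1298 of 11314 and 1748 of 11080. For HLA-C in MDA-MB-453 it was 0.36 ± 0.1503 (edgeR adjusted p = 0.208), and it passed without fulvestrant replicate 3 (0.49, adjusted p = 0.0157). Without that library 873 of 11370 genes passed the interaction, against 421 of 11080 with it.

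**Figure D3:**
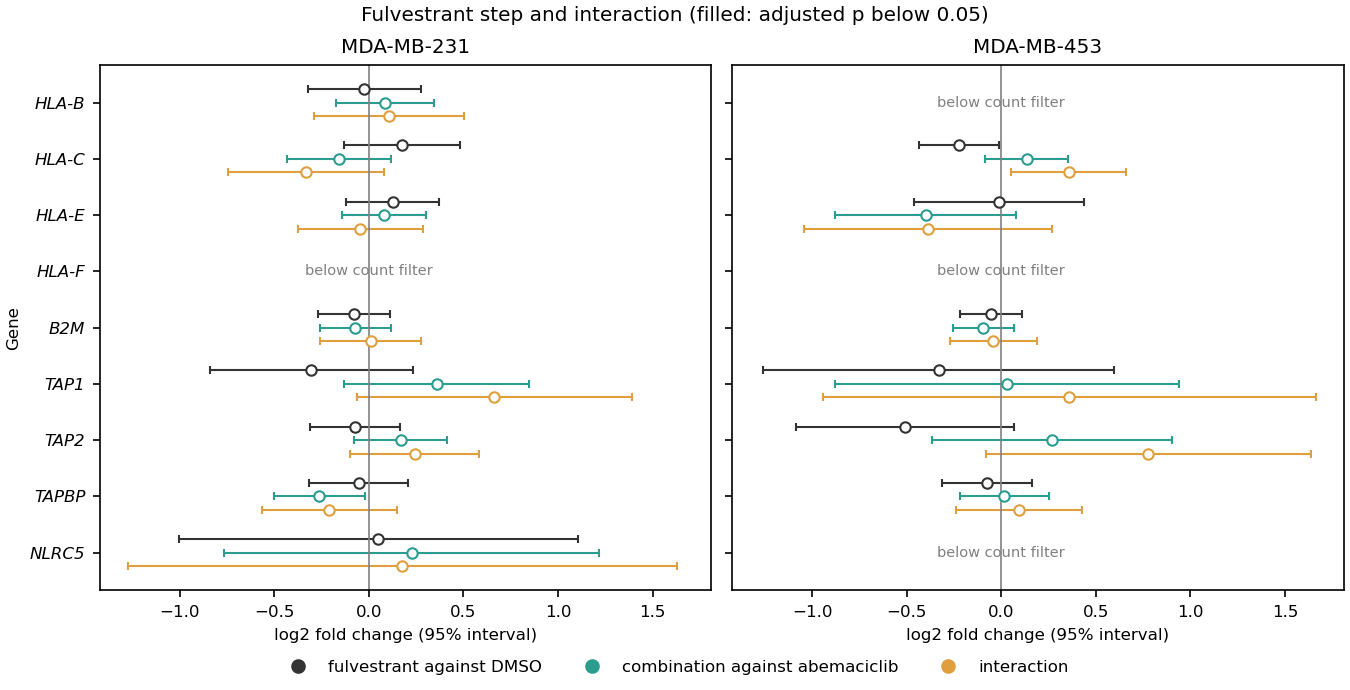
Log2 fold change (horizontal axis, with 95% interval) of each gene for fulvestrant against DMSO (black), the combination against abemaciclib (green) and the interaction (orange) in each line. Open points did not pass an edgeR adjusted p of 0.05, and no point is filled. Most intervals span 0, and those of NLRC5 in MDA-MB-231 and TAP1 in MDA-MB-453 are the widest.

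The order of the groups showed which levels could be told apart. For HLA-B the 4 groups of MDA-MB-231 stood above all of MDA-MB-453, and the abemaciclib and combination libraries, which overlapped each other, stood above the DMSO and fulvestrant libraries, which also overlapped. HLA-E had the same order, except that the combination libraries, at 148 ± 4.44 CPM, lay just above those of abemaciclib alone, at 140 ± 4.36 CPM, a difference that did not pass (log2 fold change 0.08 ± 0.110). For HLA-C all 4 groups of MDA-MB-453 stood above those of MDA-MB-231, and the fall in one line and the rise in the other brought abemaciclib-treated cells closer, at 169 ± 21.9 and 129 ± 19.9 CPM. For B2M the abemaciclib and combination groups of MDA-MB-231, at 580 ± 37.6 and 552 ± 38.7 CPM, reached the levels of MDA-MB-453, whose groups averaged 486 to 536 CPM, whereas the DMSO and fulvestrant libraries of MDA-MB-231 lay below every library of MDA-MB-453. For TAP2 the order within MDA-MB-231 ran DMSO, fulvestrant, combination and abemaciclib, and only the DMSO and fulvestrant libraries overlapped.

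The rest of the pathway was described from 8 lists of genes. The immunoproteasome and PA28 genes, which cut or help to cut peptides for class I molecules, moved with the heavy chains in MDA-MB-231: of 5 genes, 4 were tested and 4 were higher under abemaciclib, with a median of 1.19 and beside 16.9% of all genes, and 4 were higher under the combination than under fulvestrant, with a median of 1.26 and beside 17.6%. PSMB9, an immunoproteasome subunit, rose from 4.81 ± 3.11 to 20.6 ± 4.599 CPM (log2 fold change 2.09 ± 0.339), and PSME1, a PA28 subunit, from 95.4 ± 6.25 to 247 ± 16.2 CPM (1.38 ± 0.105). PSMB9 starts 488 bases from TAP1 and is read in the other direction, and under abemaciclib alone it was higher while TAP1 was not called. In the step with fulvestrant both were called higher, with log2 fold changes of 2.015 for PSMB9 and 0.94 for TAP1. In MDA-MB-453 edgeR and DESeq2 called 0 of 3 in both steps, with medians of -0.35 and -0.34. At an unadjusted p below 0.05 the counts were 2 under abemaciclib and 1 in the second step. Over all 11080 genes those counts were 4799 and 4946.

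For the loading chaperones and trimming enzymes, the calls under abemaciclib lay in MDA-MB-453, and the difference between the lines passed for PDIA3 (0.98 ± 0.181) and CANX (0.48 ± 0.107), 2 of 6 beside the 20.7% of all genes. In MDA-MB-231, edgeR and DESeq2 called none of them under abemaciclib (0 of 5 tested by edgeR). At an unadjusted p below 0.05 the count was 0 as well, beside 4813 of all 11314 genes. Both edgeR and DESeq2 called CALR lower in the second step, beside 18.5% of all genes by edgeR. In MDA-MB-453, 2 of 6 were higher under abemaciclib, beside 16.6% of all genes: PDIA3, the disulphide isomerase of the loading complex, rose from 379 ± 18.9 to 727 ± 127 CPM (log2 fold change 0.94 ± 0.103), and CANX, the calnexin gene, from 827 ± 25.0 to 1159 ± 15.2 CPM (0.48 ± 0.0761). Both serve the folding of many other glycoproteins. In the second step CANX alone of the 6 passed there, as higher, beside 17.2% of all genes.

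Of the transcription factors of the SXY module, 0 were higher and 1 was lower of those tested under abemaciclib in each line, out of 6 (MDA-MB-231) and 7 (MDA-MB-453), beside 16.9% and 19.4% of all genes called lower. The one lower was NFYB in MDA-MB-231 (log2 fold change -0.73 ± 0.236) and RFXANK in MDA-MB-453 (-0.53 ± 0.203), neither of which passed in the step with fulvestrant. The RFXANK call was lost with DESeq2 (adjusted p = 0.0678). In that step NFYC was lower in MDA-MB-231, beside 18.5% of all genes, and RFX5 was higher in MDA-MB-453, beside 17.2%.

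None of the 6 interferon ligand genes passed the count filter in either line: IFNL1 averaged at most 0.100 CPM in any group of MDA-MB-453, and the others were at 0 throughout. Of the interferon signalling genes, 13 were tested in MDA-MB-231, where IRF9 was higher and SOCS3, a feedback inhibitor of cytokine signalling, was lower under abemaciclib (94.3 ± 12.0 to 64.5 ± 14.0 CPM, log2 fold change -0.54 ± 0.1501). The median of the list was 0.16. In MDA-MB-453, 10 were tested, and IRF2 (0.89 ± 0.276) and IFNGR1 were higher under abemaciclib, beside 16.6% of all genes. In the step with fulvestrant, JAK1 was higher and SOCS3 lower in MDA-MB-231, and IFNGR2 was higher and JAK1 lower in MDA-MB-453, the latter not by DESeq2 (adjusted p = 0.0827). Over all genes, 17.6% were higher and 18.5% lower in that step in MDA-MB-231, and 17.2% and 19.4% in MDA-MB-453.

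Of the NF-kB genes, NFKB2 and NFKB1 were called in both lines. NFKB2 rose under abemaciclib, with log2 fold changes of 0.88 ± 0.281 (MDA-MB-231) and 0.96 ± 0.277 (MDA-MB-453), and NFKB1 fell, with -0.82 ± 0.163 and -0.44 ± 0.174. Both changes passed again in the step with fulvestrant in each line, but with DESeq2 NFKB1 missed the threshold in MDA-MB-453 in both steps (adjusted p = 0.0843 and 0.0702). RELB was higher in MDA-MB-231 in both steps, with the second call lost by DESeq2 (adjusted p = 0.0567), and RELA and NFKBIA were called in none of these 4 comparisons. The medians under abemaciclib were -0.22 over the 5 genes tested in MDA-MB-231 and 0.08 over the 4 tested in MDA-MB-453. Of all genes, 16.9% were called higher and 16.9% lower under abemaciclib in MDA-MB-231, and 16.6% and 19.4% in MDA-MB-453. In the step with fulvestrant these shares were 17.6% and 18.5% in MDA-MB-231, and 17.2% and 19.4% in MDA-MB-453.

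Of 11 genes for class I-like molecules and stress ligands, 6 were tested in each line. MR1, which presents vitamin metabolites to T cells, was higher with abemaciclib in both lines and in both steps, and HFE was higher in MDA-MB-231 under abemaciclib. MICB, a ligand of the NKG2D receptor of natural killer cells, was lower in MDA-MB-453 under abemaciclib (20.1 ± 6.31 to 7.66 ± 5.15 CPM, log2 fold change -1.38 ± 0.346), and MICA and MICB were lower in MDA-MB-231 and ULBP3 in MDA-MB-453 in the step with fulvestrant, where DESeq2 did not call ULBP3 (adjusted p = 0.0509). The class II genes were hardly read. None of 8 could be tested in MDA-MB-231. The 1 tested in MDA-MB-453, HLA-DMA, was higher under abemaciclib but was not called with fulvestrant present. Of all genes, 16.6% to 19.4% were called in each direction in these comparisons.

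**Figure D4:**
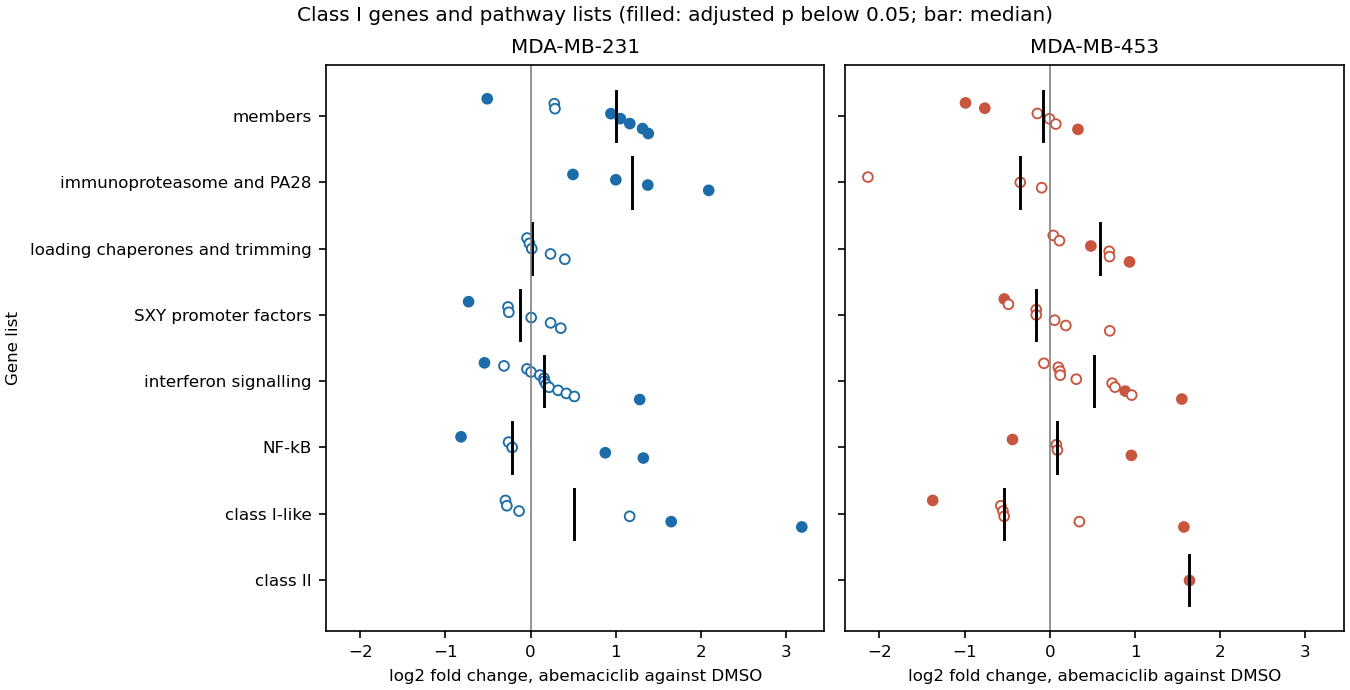
Log2 fold change for abemaciclib against DMSO (horizontal axis) of each tested gene, by list (vertical axis), in MDA-MB-231 (blue) and MDA-MB-453 (red). Filled points passed an edgeR adjusted p of 0.05, and black bars are list medians. The medians of the members and of the immunoproteasome list are 1.00 and 1.19 in MDA-MB-231 and -0.07 and -0.35 in MDA-MB-453.

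The tested members followed a shared pattern over the libraries more closely in MDA-MB-231 than in MDA-MB-453. A mean z-score of the tested members over the 12 libraries of a line correlated with single members at Pearson's r of 0.79 to 0.97 in MDA-MB-231, with the exceptions of NLRC5 (0.47) and TAP2 (-0.75). In MDA-MB-453 the range was -0.08 to 0.64. These libraries share the 4 treatments, so the values describe the treatment pattern and carry no test. Each tested member is itself part of the score, which raises its r. Among 7966 other genes in MDA-MB-231, the 5 most like the score were KRT19 (0.982), SPOCD1 (0.981), PLEC (0.978), SEZ6L2 (0.973) and ZNF428 (0.972). In MDA-MB-453, among 7982 genes, they were CCDC149 (0.919), PROM2 (0.882), RRP36 (0.879), NLE1 (0.875) and FAM104B (0.861).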

How the data were processed

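QuantSeq 3′ forward libraries were read from one end for 100 bases on a NextSeq 2000. The authors used BBDuk 38.90 for trimming, STAR 2.7.5b for alignment to hg38, and featureCounts (Subread 2.0.1) with GENCODE 35 for counting. The deposited values are raw gene counts. Counting strand, duplicates and reads with several alignments are not stated. A line of the table that names no gene held 0 counts.

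Counts were tested in R 4.3.3 with edgeR 4.0.16 (filterByExpr with a minimum count of 10, TMM, quasi-likelihood, 2-sided) on the 12 libraries of each line, or on all 24 for comparisons between lines. The p-values were adjusted by Benjamini-Hochberg across all tested genes, and an adjusted p under 0.05 made a call. The study used DESeq2, which is an alternative here (1.42.0). The coefficient of biological variation was 13.4% (MDA-MB-231) and 12.6% (MDA-MB-453), and replicate pairs differed by more than counting noise (chi-square per degree of freedom 2.64 to 8.65 in 24 pairs). The fit was tested on simulated data. Replicate numbers did not pair libraries.

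Members, lists and tests were chosen with earlier results of these data known, and list genes were written from general knowledge. Members were all named. From the lists, called genes averaging at least 10 CPM with the largest change under abemaciclib were named with values, up to 2 per direction, list and line. IRF9, IFNGR1, CALR, NFYC, RFX5, JAK1, IFNGR2, RELA, NFKBIA, RELB, MR1, HFE, MICA, ULBP3 and HLA-DMA were named after their values were seen. Some genes of the lists and line markers are not reported here. Likeness was ranked over log2(CPM + 1) among genes of at least 10 CPM. Promoters are those of RefSeq. The letters of the interferon and kappaB motifs were widened after a first search. Gene ends were taken from GENCODE v44 on GRCh38. Counting intervals are exact and cover counting error only.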

Additional observations from a re-analysis of the deposited data

Results flagged for a closer look

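The effect of abemaciclib differed between the lines, by the test of the difference itself (the MDA-MB-231 effect subtracted from the MDA-MB-453 effect, log2, edgeR on 24 libraries), for 5 members without fulvestrant. These were HLA-B (-2.30), HLA-C (-2.07), HLA-E (-1.31), B2M (-0.87) and TAPBP (-0.72). With fulvestrant present it differed for 4: HLA-B (-4.30), HLA-E (-1.65), HLA-C (-1.39) and B2M (-0.92). The HLA-B values rest on 33 counts or fewer per group in MDA-MB-453. Line and culture medium cannot be told apart in these values.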

How the results depend on the processing

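The numbers of members called stayed within 1.5 times the reported number, with DESeq2, DESeq2 size factors, no count filter, no mitochondrial transcripts, or only the compared groups in the fit. With all 24 libraries in one fit, 4 members rather than 2 passed for the combination against fulvestrant in MDA-MB-453, with HLA-E and HLA-B, which this fit tests, added as lower. Leaving out each library in turn gave 0 to 1 members for fulvestrant against DMSO and 0 to 1 for the interaction in MDA-MB-453, where HLA-C decides both. It gave 6 for abemaciclib and 6 to 7 for the combination against fulvestrant in MDA-MB-231, 2 to 3 and 2 in MDA-MB-453, and 4 to 5 for each line difference. Of the fold changes of single members under these alternatives, 1263 kept the side of the threshold. These include uncalled changes of sign smaller than the SE of the reported value. A further 9 came to pass the threshold, 6 no longer passed, and 4, none of them called, changed sign by at least that SE. The lost calls were those of TAP2 and TAPBP in MDA-MB-453 and of HLA-B between the lines. With a replicate block, 6 and 6 members were called in MDA-MB-231 and 3 and 2 in MDA-MB-453, as without it. The replicate numbers did not pair the libraries: correlations of deviations between libraries of the same number lay between -0.16 and 0.04 for MDA-MB-231 and between -0.13 and 0.05 for MDA-MB-453. Scaling on library totals moved 3 of 72 group levels by more than their SD (B2M and TAPBP in MDA-MB-453). Depth limits NLRC5, HLA-F, TAP1 and, in MDA-MB-453, HLA-B.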
